A study of Mus musculus with 12 samples.

Results

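OCT4 occupancy at 32 autosomal genes that regulate or mark the pluripotent state was described from the positions of OCT4 ChIP-seq peaks, the stretches of genome enriched by an antibody against OCT4. The genes were listed by name, and the peaks that belong to them are those with any base within 20 kb of the RefSeq gene body on mm10. This gave 255 peaks, out of 51499 on the autosomes and 53675 in the whole list. The 32 genes are part of 20558 autosomal protein-coding genes in the annotation. Because 4 peaks lie in reach of both Dppa2 and Dppa4, which are 15981 bp apart, the 255 peaks make 259 pairs of a gene and a peak.

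The libraries came from iXist-ChrX-Cast, mESCs (embryonic stem cells of the mouse) from a female hybrid given as Dom/129S x Cast, in which a TetOn promoter drives Xist from the castaneus X chromosome. OCT4 libraries were made with the anti-OCT4A antibody C3OA3C1 from cells without doxycycline (day 0) and after 6 days with 1 µg/ml doxycycline (day 6), 2 libraries each, and every one of these groups carries the inducible Xist. The 12 libraries of the series also include 4 inputs and 4 YY1 libraries. All cells were cultured with serum and LIF on inactivated fibroblasts, which were removed by pre-plating before experiments, and no source used here gives the share of fibroblasts that stayed. No expression was measured in this series, so the labelled cell type was not checked against marker genes. Allelic ratios cover the X chromosome alone (1006 OCT4 peaks and 211 YY1 peaks, 0 of either off the X), so none belongs to the genes described here. The OCT4 list is 1 consensus over libraries and days, without heights, scores or read depth. Day 0 and day 6 can therefore not be compared at these genes, no value has a replicate error, and no test was made. Counts and widths below describe 1 list, and the sampling depth behind it is unknown.

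OCT4, the product of Pou5f1, is a POU-domain transcription factor that, with SOX2 and NANOG, maintains the pluripotent state of embryonic stem cells. These factors bind regulatory DNA of their own genes and of each other, a circuit to which naive-state factors such as KLF4, ESRRB and TFCP2L1 are joined. On DNA, OCT4 reads an octamer, and next to SOX2 it reads a composite element in which a SOX site and an OCT site adjoin.

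The sequences below show where such elements stood in the peaks of the listed genes. Searched on both strands were the octamer ATGCAAAT, the composite core TTGTNATGC, and a spaced composite with TTGT and ATGC set 4 bases apart. A composite core can overlap an octamer. In 14 peaks of 11 listed genes a composite core was present somewhere in the peak, which is 5.49% of the 255 peaks, close to the 5.11% of all autosomal peaks. The lines that follow are the composite elements of core factors and of genes with the element in a promoter peak, each shown as 29 bases of the RefSeq GRCm38.p6 (mm10) genome, 5′ to 3′, on the strand on which the element reads forward, with the element in capitals. This is the reference sequence, not that of the hybrid cells.
Pou5f1, 1.98 kb before the start, in the promoter peak (chr17:35504043-35504071, minus strand): tcatgcacctTTGTTATGCatctgccgtc
Pou5f1, 8.31 kb after the start, in an intron of Tcf19 (chr17:35514327-35514355, plus strand): acatagtagcTTGTCATGCatttatgggt
Sox2, 4.06 kb after the start, past the gene's end (chr3:34654041-34654069, plus strand): cgggcagccaTTGTGATGCatataggatt
Nanog, 68 bp before the start (chr6:122707407-122707435, minus strand): accatggacaTTGTAATGCaaaagaagct
Dppa4, 72 bp before the start (chr16:48283649-48283677, minus strand): ctcaacaaaaTTGTGATGCtaaaatctcc
Dppa5a, 788 bp before the start (chr9:78368973-78369001, minus strand): ctaaacaattTTGTAATGCtgttcacatt
Rif1, 557 bp before the start (chr2:52072244-52072272, plus strand): ttccaggcctTTGTTATGCacgccatggg

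All 3 core factors had a composite element, and at Nanog and Dppa4 it stood closest to the start. The share of all genes with a composite element in a peak was not counted, and a gene with more peaks has more places for one. The presence of the element at these genes is therefore a description only. Away from promoters the element was found once near Utf1 and Prdm14, in both of the widest intronic peaks of Tet2, in 2 coding-exon peaks of Nr5a2 and in an intronic peak of Jarid2. These distal elements are shown in the same way because they mark which of the scattered peaks carry the element.
Utf1, 1.83 kb after the start, past the gene's end (chr7:139945675-139945703, minus strand): tgagccgtcaTTGTTATGCtagtgaagtg
Prdm14, 32.4 kb after the start (chr1:13094774-13094802, plus strand): gcagactaacTTGTTATGCtgatgctctg
Tet2, 10.6 kb after the start (chr3:133534477-133534505, minus strand): tagagcaattTTGTCATGCacatgtacat
Tet2, 27.2 kb after the start (chr3:133517888-133517916, minus strand): ttgctgaaatTTGTTATGCaaattcctgc
Nr5a2, 11.6 kb after the start (chr1:136948790-136948818, minus strand): cgcagccgccTTGTCATGCtgcccaaagt
Nr5a2, 19.7 kb after the start (chr1:136940764-136940792, plus strand): tgaggtggcaTTGTCATGCtaatgggaga
Jarid2, 24.8 kb after the start (chr13:44755581-44755609, minus strand): ctttggaagcTTGTCATGCttcagcgact

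The spaced form was found in 5 peaks of the listed genes, 1.96% against 1.63% of all autosomal peaks, and in the central 300 bases in 0.392% against 1.03%. The peak over the 3′ UTR of Fgf4 is the textbook case, since the Fgf4 enhancer there is a known target of SOX2 with OCT4.
Fgf4, 3.02 kb after the start, in the 3′ UTR (chr7:144864388-144864416, plus strand): aaaactctTTGTTTGGATGCtaatgggat
Otx2, 751 bp after the start, in an exon (chr14:48666880-48666908, minus strand): ggaggggttTTGTTCTTATGCccacgcta
Esrrb, 117 kb after the start, in an intron (chr12:86478091-86478119, minus strand): tcctgggctTTGTCCCCATGCctgtcctg
Tdgf1, 2.73 kb before the start (chr9:110948877-110948905, minus strand): tttaaaaaaTTGTGTGCATGCgtgcacac
Tdgf1, 7.64 kb after the start (chr9:110938505-110938533, plus strand): cttctgttTTGTGTGTATGCatgcacatg

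Both Tdgf1 matches lie in sequence that the genome file marks as repeats, and the other elements printed above do not. In the 255 peaks, 0 of 14 composite cores lay in marked repeats, against 34.2% of the 2690 composite cores in all autosomal peaks. For the spaced form the shares ran the other way, 40.0% near the listed genes (2 of 5) and 9.09% over all autosomal peaks.

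All 32 genes had at least 1 OCT4 peak within 20 kb, where 82.0% of all autosomal protein-coding genes had one. The number per gene ran from 2 at Zfp281 to 26 at Esrrb, with a median of 7 and quartiles of 4.75 and 10. Over all autosomal protein-coding genes the median was 2 and the quartiles were 1 and 4. In 30 of the 32 genes (93.8%) there were 4 or more peaks, against a background of 34.4%, and in 19 (59.4%) there were 7 or more, against 10.9%. Rif1 with 3 peaks and Zfp281 with 2 were the genes under 4. Per 10 kb of window, which is the gene body with 20 kb on each side, the median was 1.22 peaks (range 0.319 at Rif1 to 2.82 at Klf2), compared with 0.322 over all genes. Peaks covered a median of 7.64% of the windows of listed genes and 1.63% of those of all genes. The most peaks in any 10 kb had a median of 4 over listed genes, with 8 at Tet1, and a median of 1 over all genes.

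Since a long gene has a long window, each gene was set beside all autosomal protein-coding genes whose body was at most 25% longer or 20% shorter than its own, from 571 to 2573 genes for each. Of these genes of like length, the share with as many or more peaks had a median of 7.29% over the 32 genes. In 30 genes the count lay above the median of genes of like length, and at Rif1 and Zfp281 it equalled that median. The share was at most 1% at 6 genes, namely Sox2, Klf2, Esrrb, Sall4, Tdgf1 and Dppa5a, at most 5% at 14 genes and at most 10% at 18. The windows of listed genes held a median of 0 other protein-coding starts against 1 over all genes. Against genes of like length with a like number of neighbouring starts the median share was 3.96%. The share rose at Pou5f1 (from 1.92% to 3.51%), Trim28 (1.82% to 3.33%), Dppa5a (0.0692% to 0.251%) and Dnmt3l (31.4% to 42.8%), which have 2 or more other starts in their windows. At Dppa5a the comparison set fell from 1445 to 399 genes, and both shares rest on very few genes. Against genes of like length that had an OCT4 peak at their own start, a comparison chosen after the data had been seen, the median share was 12.0%.

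**Figure D1:**
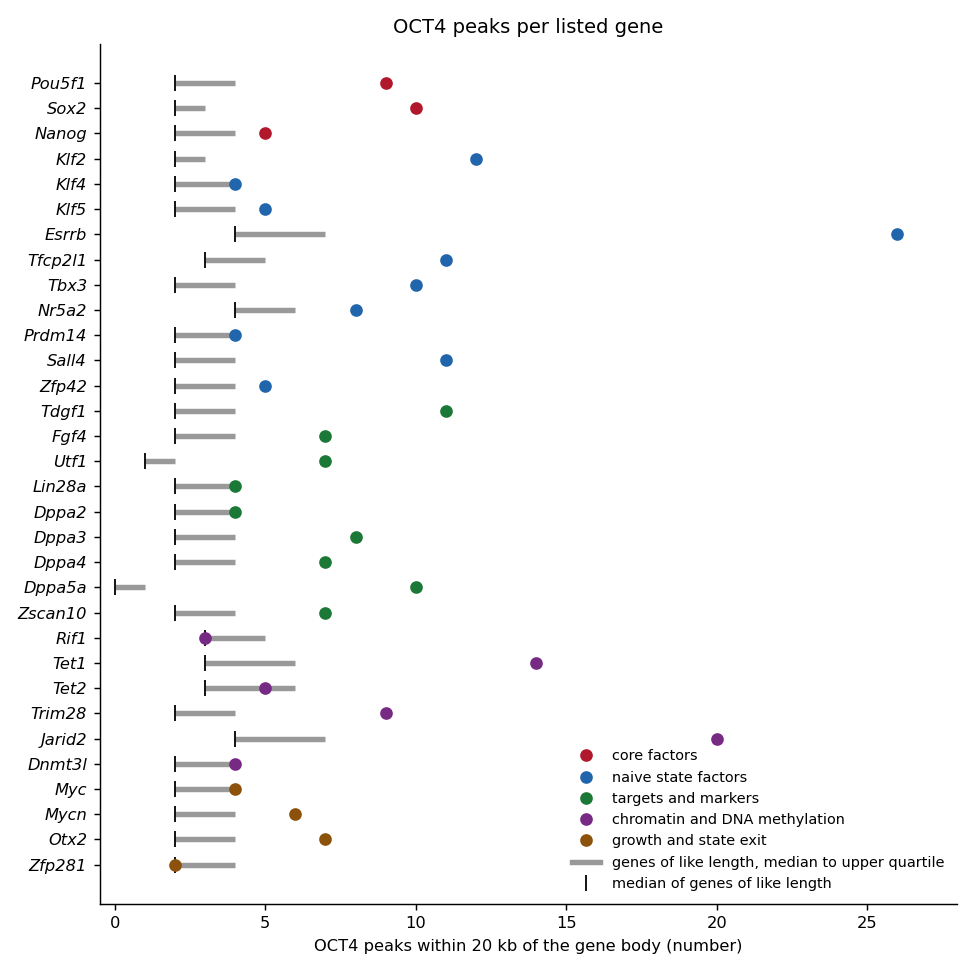
Number of OCT4 peaks within 20 kb of each of the 32 gene bodies (points, coloured by role), with the median (tick) and the span from median to upper quartile (grey bar) of autosomal protein-coding genes of like length. Esrrb with 26 and Jarid2 with 20 peaks lie farthest to the right, and Rif1 and Zfp281 lie on the median of their like-length genes.

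By bands of distance from the body, the ratio of listed to all genes was highest in the body and in the first 10 kb beyond it. Counted by peak centre and summed over genes, listed genes had 0.970 peaks per 10 kb in the body, 1.88 in the first 5 kb beyond it, 1.38 from 5 to 10 kb, 0.938 from 10 to 20 kb, 0.667 from 20 to 50 kb and 0.487 from 50 to 100 kb. The same sums over all autosomal protein-coding genes, in which peaks near several genes count for each, were 0.277, 0.536, 0.398, 0.390, 0.372 and 0.353. The ratio of listed to all genes thus went from 3.50 in the body, 3.49 in the first 5 kb and 3.46 from 5 to 10 kb to 1.38 at 50 to 100 kb. The body values were not matched for length, and the sum over all genes includes much longer bodies. Much of the listed sum came from 2 genes, Esrrb with 23 and Jarid2 with 10 peaks touching the body. Median body length was 10376 bp for listed genes and 17578 bp for all, and the longest were 190870 and 2270506 bp. About the start, listed genes had 0.781 peak centres per gene in the 2 kb upstream and 0.688 in the 2 kb downstream, against 0.207 and 0.413 over all genes. For the listed genes these are 25 and 22 peaks. Of the 259 pairs, 90 peaks lay upstream of the body, 104 touched it and 65 lay downstream. For 214 of the 255 peaks the nearest protein-coding start was that of the listed gene. The split of pairs and this count are given without a share over all genes and describe the listed genes alone.

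**Figure D2:**
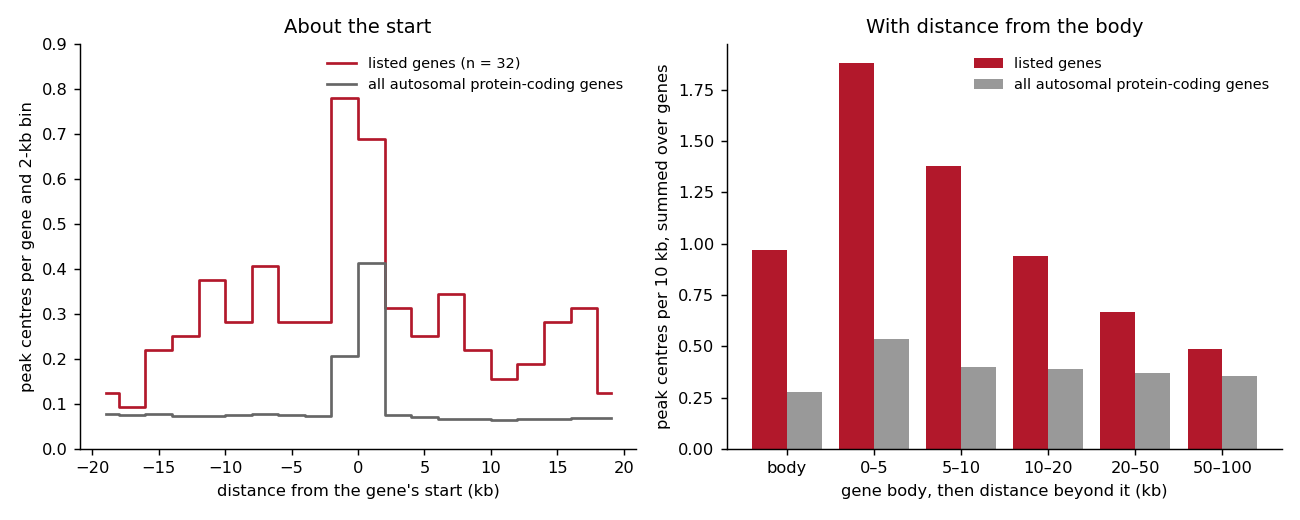
Left, peak centres per gene in 2-kb bins by distance from the start (kb), for the 32 listed genes (red) and all autosomal protein-coding genes (grey). Right, peak centres per 10 kb in gene bodies and in bands beyond them (kb), summed over the same gene sets (bars from 0), where the listed genes fall from 1.88 at 0 to 5 kb to 0.487 at 50 to 100 kb.

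A peak within 500 bp of a start of the gene itself, called a promoter peak below, was present at 30 of 32 genes (93.8%), against 52.4% of all autosomal protein-coding genes. It was also present at 15 of 16 signalling genes and 8 of 10 housekeeping genes from lists described below, so it is not particular to the listed genes. Among the listed genes the exceptions were Prdm14, whose nearest peak ends 759 bp from the start, and Zfp281. Esrrb, Nr5a2, Dnmt3l and Otx2 had a promoter peak only at starts other than the first. At Otx2 the nearest peak edge was 695 bp from the first start. In all, 37 peaks lay at a start of a listed gene, 20 at a start of another gene only, and 198 were distal. The share of peaks at any start was 57 of 255, 22.4% (95% exact binomial interval 17.4 to 28, which covers counting only), close to the 24.8% of all autosomal peaks. By peak centre, 34 of the 255 peaks lay in exons, 114 in introns and 107 between genes. No share over all autosomal peaks is given for these places, so they only describe the listed genes.

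Peaks near the listed genes were wide. The median width was 520 bp (quartiles 322 and 896), compared with 422 bp (304 and 641) for all autosomal peaks. Peaks at any start had a median of 774 bp against 583 bp, and distal peaks 456 bp against 389 bp. Width over 1000 bp was found in 46 peaks (18.0%), against 8.79% of autosomal peaks, and width over 2000 bp in 13 (5.1%), against 0.627%. A peak over 1000 bp was present near 24 of the 32 genes, against a background of 24.0% of genes. Nr5a2, Zfp42, Dppa2, Dppa4, Zscan10, Dnmt3l, Myc and Zfp281 had none. This share of genes was not matched for the number of peaks, which had a median of 7 over listed genes and 2 over all genes. Such wide peaks were not particular to the listed genes. Of the 10 housekeeping genes described below, all but Rplp0, Sdha and Tbp had one, up to 2374 bp near Gapdh. Of the 16 signalling genes, all but Id1, Lef1, Fgfr1, Bmp4 and Spry2 had one, up to 2614 bp near Spry4. The widest peak of a gene was distal at 17 genes, at a start of the gene at 12, and at a start of a neighbour at 3 (Dppa3, Tet1 and Utf1). Width is the only measure of size that the list gives.

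**Figure D3:**
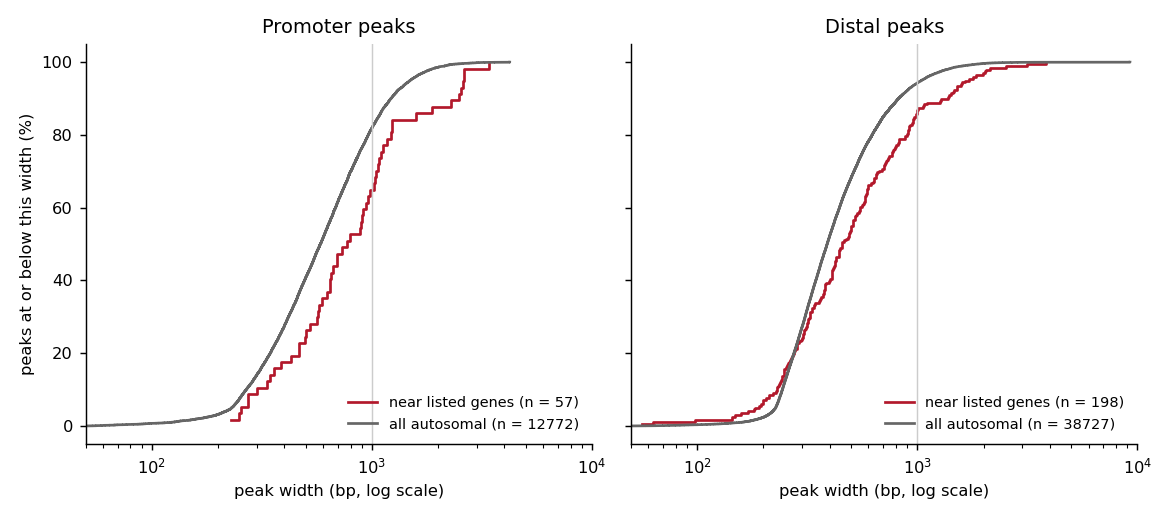
Cumulative share of peaks (%) at or below a given width (bp, log scale), for peaks within 500 bp of any start (left) and distal peaks (right), near the listed genes (red) and over all autosomes (grey). The red curves run to the right of the grey ones for most widths, with medians of 774 against 583 bp and 456 against 389 bp, and the vertical line marks 1000 bp.

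Among the core factors, Pou5f1, which encodes OCT4 itself, had 9 peaks, a number reached by 1.92% of genes of like length. Of these, 6 were nearest to its own start, and with like neighbours the share was 3.51%. Its widest, chr17:35503741-35506325, was 2585 bp wide, reached over the start and extended upstream across the composite element shown above, at about the distance of the distal enhancer known from textbooks. Upstream followed peaks of 732 bp (chr17:35502327-35503058), 775 bp (chr17:35496642-35497416), 617 bp (chr17:35490225-35490841), 545 bp (chr17:35488197-35488741) and 474 bp (chr17:35485667-35486140). A 376-bp peak (chr17:35509598-35509973) lay in an intron of Pou5f1. Past the gene's end, a 341-bp peak in an intron of Tcf19 (chr17:35514066-35514406) held the other composite element, and a 273-bp peak (chr17:35516791-35517063) lay at the starts of Cchcr1 and Tcf19.

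Sox2, which encodes the HMG-box partner of OCT4, had 10 peaks, a number reached by 0.876% of genes of like length. All 10 had the Sox2 start as the nearest protein-coding start, and the 9 distal peaks lay in introns of the non-coding gene Sox2ot, which spans the locus. The promoter peak (chr3:34648778-34651305) was 2528 bp wide and lay across the start. Upstream were peaks of 488 bp (chr3:34647914-34648401), 646 bp (chr3:34646131-34646776), 634 bp (chr3:34642161-34642794) and 549 bp (chr3:34639639-34640187). Downstream, the 895-bp peak (chr3:34653494-34654388) held the composite element, and peaks of 221 bp (chr3:34656192-34656412) and 928 bp (chr3:34667927-34668854) held an octamer each. Between these lay peaks of 829 bp (chr3:34663847-34664675) and 409 bp (chr3:34665088-34665496). No further peak was added from 20 to 50 kb, and the count reached 16 at 100 kb.

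Nanog, a homeobox factor, had 5 peaks, a number reached by 18.5% of genes of like length, so it stood out less than Pou5f1 and Sox2. Its promoter peak (chr6:122707042-122708080) was 1039 bp wide and held the composite element. A wider peak of 1977 bp (chr6:122702025-122704001) was centred 4476 bp upstream, followed by 199 bp (chr6:122694145-122694343) and 829 bp (chr6:122689979-122690807). A 63-bp peak in a Nanog coding exon (chr6:122713374-122713436) was among the narrowest in the list, where 217 autosomal peaks and 3 near listed genes were under 100 bp. With wider windows Nanog gained more than the other core factors, from 5 peaks at 20 kb to 19 at 50 kb and 34 at 100 kb. The body of Dppa3 lies 77217 bp away, and its count rose likewise, from 8 to 17 and 25, so both windows take in much of the same region at 100 kb.

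**Figure D4:**
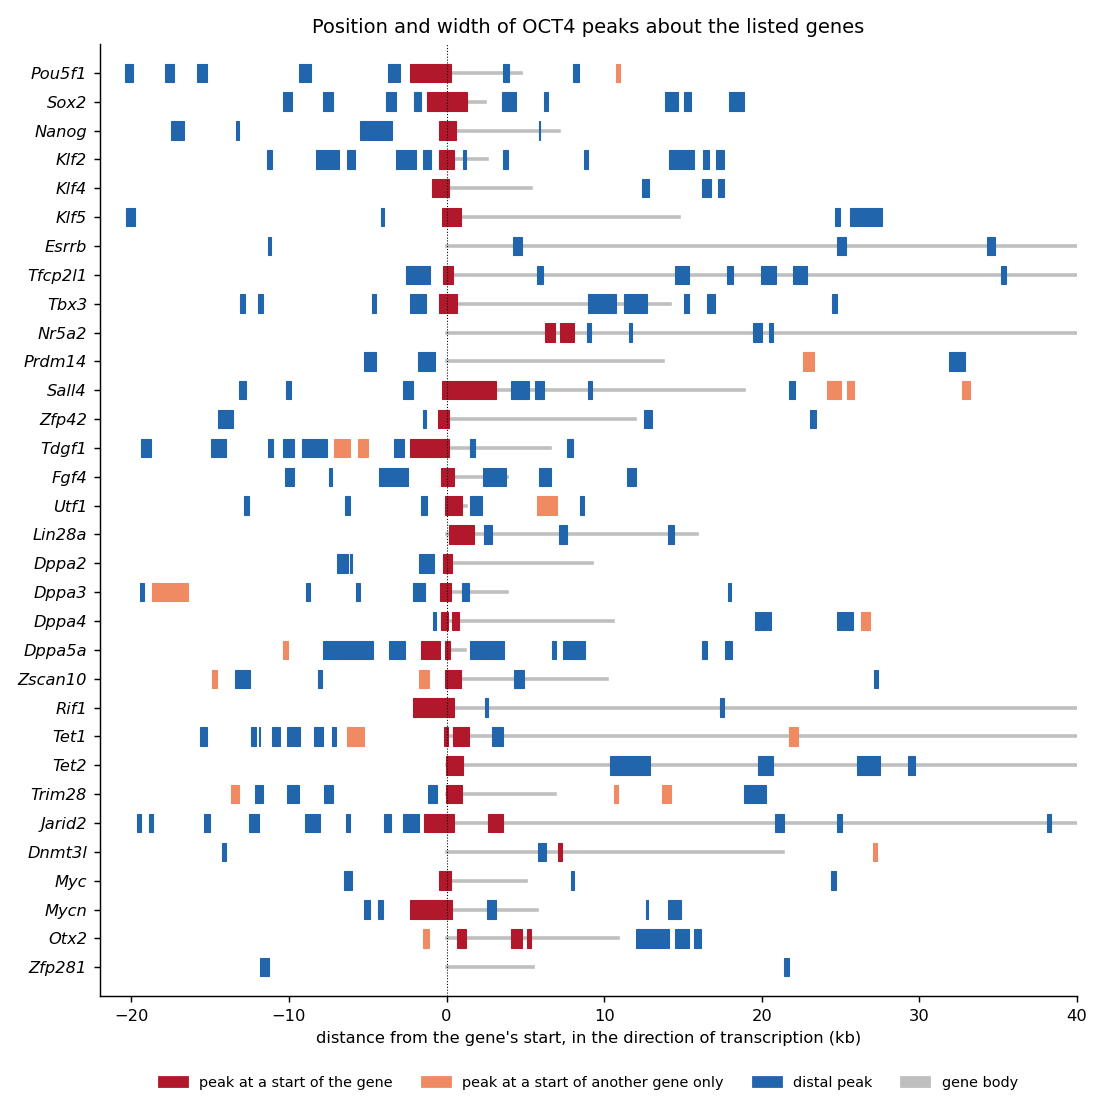
OCT4 peaks drawn to scale by distance from the start of each listed gene in the direction of transcription (kb), from 22 kb upstream to 40 kb downstream, with gene bodies in grey. Red marks peaks at a start of the gene, orange peaks at a start of another gene only, and blue distal peaks. Peaks farther than 40 kb downstream, most of them in Esrrb and Jarid2, are not drawn, and Esrrb, whose peak at an own start is among these, Prdm14 and Zfp281 have no red mark.

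The naive-state factors had a median of 9 peaks, from 4 at Klf4 and Prdm14 to 26 at Esrrb. Esrrb, an orphan nuclear receptor that sustains self-renewal, had the most, with 23 of 26 in its body, and 0.798% of genes of like length had as many. Only 25 autosomal protein-coding genes of any length had 26 or more. The first start of Esrrb had no peak within 500 bp, the nearest being an intronic peak (chr12:86365365-86365893) of 529 bp, and its promoter peak of 729 bp stood at an internal start, centred 60670 bp into the gene. Over 100 kb from the first start, 17 peaks were centred. The widest (chr12:86501187-86505026) was 3840 bp, wider than the widest peak of every gene of like length. Octamers were found in 5 of the 26 Esrrb peaks, while 9.42% of all autosomal peaks held one. All 5 were over 100 kb from the first start, where 17 of the 26 peaks lay. Among them, a 181-bp peak lay 4825 bp past the gene's end, and the octamer of a 1719-bp peak was in sequence marked as a repeat.

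Klf2, a Krüppel-like factor, had 12 peaks and the highest density of the listed genes, 2.82 per 10 kb, and 0.344% of genes of like length had as many. Its promoter peak (chr8:72318616-72319529) was 914 bp, and the widest (chr8:72333181-72334777) was 1597 bp, centred 14917 bp past the start. Klf4 and Klf5, members of the same family, were less dense. Klf4 had 4 peaks, with the widest, 1099 bp, at the start (chr4:55532287-55533385) and the other 3 downstream, centred 12641 to 17401 bp from the start. Klf5 had 5, with 1230 bp at the start (chr14:99298404-99299633) and 2034 bp in a distal peak (chr14:99324292-99326325) centred 26617 bp away. The shares of genes of like length with as many or more were 29% for Klf4 and 20.3% for Klf5, so these counts are not unusual for genes of their size.

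Tfcp2l1, a CP2-family factor downstream of LIF and WNT signals, had 11 peaks, with 8 touching its body. Its promoter peak (chr1:118627695-118628320) was 626 bp, and the widest (chr1:118625354-118626873), 1520 bp, held an octamer and was centred 1810 bp upstream. Tbx3, a T-box factor, had 10 peaks, with 1172 bp at the start (chr5:119670050-119671221) and 1782 bp in an intron (chr5:119679486-119681267). Sall4, a zinc finger factor that binds with OCT4, had 11, of which 3 lay at starts of its neighbour Atp9a. Its promoter peak (chr2:168764083-168767489) spanned 3407 bp, a width reached near 0.118% of genes of like length. Of genes of like length, 2.42% had as many peaks as Tfcp2l1, 1.37% as many as Tbx3 and 0.784% as many as Sall4.

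Nr5a2, a nuclear receptor that can act upstream of Pou5f1, had 8 peaks with a median width of 315 bp, none over 1000 bp. No peak stood at its first start, and both promoter peaks, 577 bp (chr1:136953596-136954172) and 893 bp (chr1:136952377-136953269), were at internal starts. Zfp42, the marker Rex1, had 5 peaks, of which the promoter peak (chr8:43306874-43307524), 651 bp, held an octamer, and the widest (chr8:43320537-43321520) was 984 bp. Prdm14, which restrains DNA methylation and FGF signalling, had 4 peaks. The nearest (chr1:13127922-13128978) was 1057 bp, and the widest (chr1:13094247-13095316), 1070 bp and 32.4 kb past the start, held the composite element. Genes of like length had as many or more peaks in 17.0%, 19.5% and 31.7% of cases for Nr5a2, Zfp42 and Prdm14.

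Targets and markers of the pluripotent state had a median of 7 peaks, and each of these 9 genes had a promoter peak. Dppa5a, a small RNA-binding protein gene, had 10 peaks in a window of 41.1 kb, and peaks covered 25.7% of it, the highest share among listed genes and close to the 26% that is the highest of all autosomal protein-coding genes. Only 6 of these 10 peaks had the Dppa5a start as the nearest protein-coding start, so the count and the coverage include peaks nearer to other genes. The start of Dppa5a held peaks of 358 bp (chr9:78367964-78368321) and 1226 bp. The widest peak in its window (chr9:78372885-78376029), 3145 bp, was centred 6258 bp upstream. Genes of its length include many receptor genes of the olfactory and vomeronasal families, and of its 1445 genes of like length 35.6% had any peak. With such families left out, 0.258% of the 388 remaining genes had as many peaks, against 0.0692% with them, and both shares rest on very few genes.

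Tdgf1, the Nodal co-receptor Cripto, had 11 peaks, 8 of them upstream and 6 of these in introns of its neighbour Lrrc2. Only 3 of the 11 had the Tdgf1 start as the nearest protein-coding start. Its promoter peak (chr9:110945974-110948471) was 2498 bp and held an octamer, in sequence marked as a repeat. Fgf4, the growth factor that drives cells towards lineage commitment, had 7 peaks, with 879 bp at the start (chr7:144861008-144861886), 1507 bp over the 3′ UTR with the spaced composite, and the widest, 1850 bp, upstream (chr7:144857116-144858965). Utf1, a chromatin factor, also had 7, with 1128 bp at the start (chr7:139943732-139944859), 720 bp just past the gene with the composite, and the widest, 1231 bp, at the start of Gm16201 (chr7:139949625-139950855). As many peaks were present in 0.286% of genes of like length for Tdgf1, 5.40% for Fgf4 and 3.50% for Utf1.

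Lin28a, which blocks maturation of let-7 microRNAs, had 4 peaks, all touching its body, with the widest, 1592 bp, at the start (chr4:134017475-134019066). Dppa3, the maternal factor Stella, had 8, with 693 bp at the start (chr6:122626040-122626732) and the widest, 2276 bp, at the start of Gdf3 (chr6:122607732-122610007). Dppa2 and Dppa4 act as a pair and are neighbours. Dppa4 had 2 promoter peaks, of which the nearest to the start (chr16:48283376-48283840) was 465 bp and held a composite element. Dppa2 had 1 promoter peak of 570 bp (chr16:48310034-48310603), and the widest peak of both genes was the same 968 bp (chr16:48308539-48309506) just upstream of Dppa2. Of the 7 peaks counted for Dppa4, 4 were those of Dppa2. Zscan10, a zinc finger factor, had 7 peaks, with the widest, 985 bp, at the start (chr17:23600759-23601743), and only 2 of the 7 were nearest to its own start.

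Counts at chromatin and DNA methylation regulators ran from 3 to 20. Jarid2, a cofactor of Polycomb repressive complex 2, had 20 peaks, with 8 of them upstream and an 1866-bp promoter peak (chr13:44729354-44731219), and 2.71% of genes of like length had as many. Tet1, which oxidises 5-methylcytosine, had 14, of which 8 stood within 10 kb and 8 lay upstream of the body in introns of the overlapping gene Gm51805. Its start carried a 254-bp peak (chr10:62887346-62887599), and the widest, 1069 bp (chr10:62892686-62893754), lay at the start of Gm26479. Tet2, an enzyme of the same family, had 5 peaks, all in its body and with a median width of 1075 bp, the highest of the listed genes. Its promoter peak (chr3:133544108-133545182) was 1075 bp and its widest (chr3:133532255-133534793) was 2539 bp, with a composite element. The share of genes of like length with as many peaks was 2.21% for Tet1 and 34.3% for Tet2, so the pair differed in number, while Tet2 had the wider peaks.

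Trim28, a corepressor that silences retroelements, had 9 peaks but stood among 4 other protein-coding starts, and only 2 of its 9 peaks were nearest to its own start. Its promoter peak (chr7:13024109-13025137) was 1029 bp, and the widest (chr7:13043032-13044418) was 1387 bp. Dnmt3l, the cofactor of de novo DNA methyltransferases, had 4 narrow peaks of at most 533 bp (chr10:78048078-78048610), and that at an own start was 302 bp. Rif1, which controls replication timing, had 3 peaks over a body of 53955 bp, yet its promoter peak (chr2:52070702-52073308) was 2607 bp, a width reached near 0.563% of genes of like length. For these genes, 1.82%, 31.4% and 56.3% of genes of like length had as many or more peaks.

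The genes of growth and of exit from the naive state had a median of 5 peaks. Myc had 4, with the widest, 774 bp, at the start (chr15:61984883-61985656), and its paralogue Mycn had 6, with 2608 bp at the start (chr12:12941519-12944126). Otx2, a homeobox factor of the formative state, had 7, of which 3 lay at own starts, the nearest being 562 bp (chr14:48666388-48666949), and a 2058-bp peak stood past the gene's end (chr14:48653552-48655609). Zfp281, a zinc finger factor that promotes exit, had 2 peaks, none within 10 kb, the wider being 596 bp (chr1:136613070-136613665). As many or more peaks were found in 28.9%, 10.2%, 7.53% and 60.5% of genes of like length for Myc, Mycn, Otx2 and Zfp281, so Zfp281 resembled an average gene of its size.

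Other gene lists gave the scale on which to read these counts. Of 22 other pluripotency-associated genes, all had a peak and a promoter peak, with a median of 7.5 peaks, and a median of 6.07% of like-length genes had as many or more. Etv5 with 17, Tcf7l1 with 16 and Morc1 with 15 had the most. For 18 transcription factors of differentiated lineages the median was 3 peaks and 58.7%, with 14 having a peak and 10 a promoter peak, and Elf5, Tbx5, Myod1 and Gata6 had 0. Eomes, with 8 peaks, had the lowest share of this list, 3.64%. Foxa2, with 5 peaks, had 17.7%, next to the 18.5% of Nanog. The 16 signalling genes had a median of 5 peaks and 23.1%, with 11 peaks at Socs3, a target of LIF signalling, and 12 at Lef1. Of these signalling genes, 15 had a promoter peak. The 10 housekeeping genes had 4.5 and 23.0%, with 8 having a promoter peak. The 11 tissue-restricted genes had 2 and 72.4%, with 1 promoter peak among them, at Mbp. By role, the listed genes gave medians of 1.92% for core factors, 9.74% for naive-state factors, 5.40% for targets and markers, 17.1% for chromatin regulators and 19.6% for growth and exit genes. Ranges of any pair of lists overlapped, except that the highest core factor, at 18.5%, lay below the lowest tissue-restricted gene, at 22.4%.

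**Figure D5:**
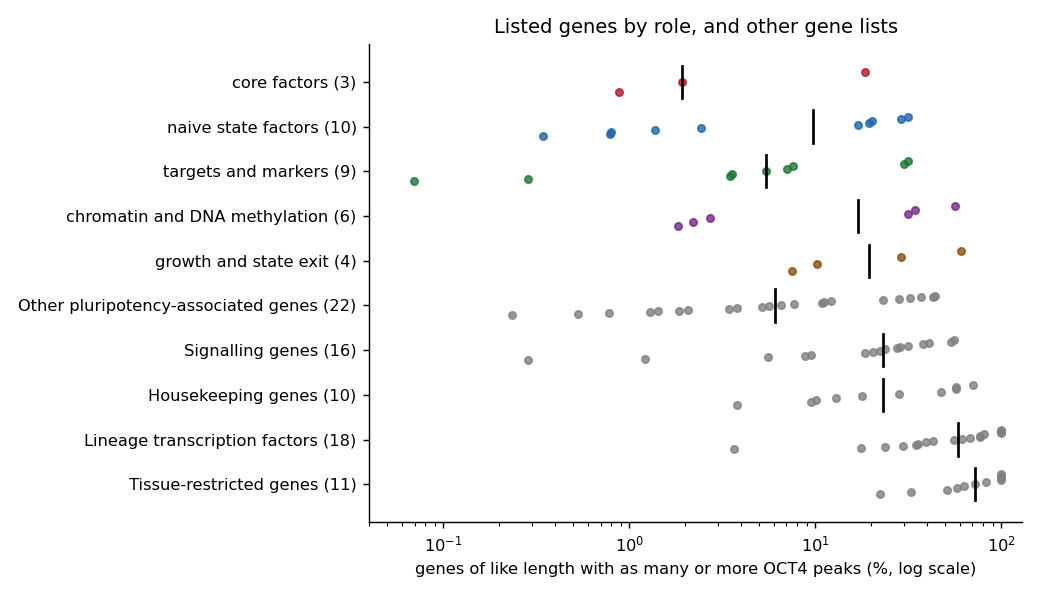
Share of autosomal protein-coding genes of like length with as many or more OCT4 peaks (%, log scale), with a point for each gene and a line at the list's median, for the 32 genes by role (coloured) and 5 other lists (grey, number of genes in brackets). Lower values mean more peaks for the gene's length. Medians run from 1.92% for core factors to 72.4% for tissue-restricted genes.

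Elements recognised by OCT4 were found in a share of peaks that lay below or above that of the whole list, depending on the stretch searched. An octamer, a composite or a spaced composite stood in the central 300 bases of 26 of 255 peaks, 10.2% (95% exact binomial interval 6.77 to 14.6), against 11.6% of all autosomal peaks. In stretches of 300 bases set 3 kb to each side of autosomal peaks the share was 3.52%, and beside the peaks of the listed genes it was 2.50%. Distal peaks near the listed genes held such an element in 11.6% of cases, against 14.3% of all distal autosomal peaks. Peaks at any start held it in 5.26% (3 of 57), against 3.56%. With 600 bases about the centre the share was 16.1% against 15.3%, and over whole peaks 17.3% against 15.2%. In peaks over 1000 bp it was 8.70% (4 of 46) against 5.32% in the central 300 bases. Per kb of peak, octamers numbered 0.155 near the listed genes and 0.200 over all autosomal peaks, and composites 0.0775 and 0.0987.

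The element TCAAGGTCA, read by ESRRB and its relatives, stood in the central 300 bases of 3.14% of peaks near the listed genes, against 2.15% of all autosomal peaks. In the stretches beside the listed genes' peaks it stood in 1.5% (6 of 400), and beside all autosomal peaks in 0.857%. Over whole peaks there were 22 matches near the listed genes, 0.122 per kb, against 0.0678 per kb over all autosomal peaks. In 2 peaks near the listed genes it occurred 3 or more times, in the widest peak of Esrrb and in the promoter peak of Mycn. Over all autosomal peaks, these 2 included, there were 11 such peaks (0.0214%). That share was not matched for width, and the 2 peaks were 3840 and 2608 bp wide against an autosomal median of 422 bp. The 4 matches in the Esrrb peak are shown because they concern the gene's own product. They were chosen after their number had been seen.
Esrrb intron (chr12:86501707-86501735, minus strand): gagcaacagtTCAAGGTCAtgctcagcta
Esrrb intron (chr12:86502049-86502077, plus strand): catccctgctTCAAGGTCAactgaaaagc
Esrrb intron (chr12:86503541-86503569, plus strand): gatccgaagaTCAAGGTCAcccttgatcc
Esrrb intron (chr12:86504509-86504537, plus strand): gatccaaagtTCAAGGTCAgttttggagg

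The first and the last of these lines lie in sequence marked as repeats, as did 12 of the 22 matches near the listed genes (54.5%) and 42.6% of matches in all autosomal peaks. The YY1 core AANATGGC stood in the central 300 bases of 4.71% of peaks near the listed genes, against 5.94% of all autosomal peaks and 5.73% of the stretches beside them. Over whole peaks, which were wider near the listed genes, the order was the other way, 11.4% against 9.50%. Over equal lengths it was not, since 600 bases about the centre held the core in 10.2% against 11.3%. Per kb of peak, YY1 cores numbered 0.172 near the listed genes and 0.235 over all autosomal peaks. GC content had a median of 49.5% near the listed genes and 49.3% over all autosomal peaks, but for peaks at any start these medians were 56.1% and 63.7%.

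At the limit of 20 kb, the outermost peaks counted were 19182 to 19892 bp from the bodies of Dppa3, Jarid2, Myc, Klf5 and Pou5f1. The nearest peaks not counted were 20063 bp from Nr5a2, 20291 bp from Myc, 20337 bp from Nanog and 20546 bp from Klf5. No region called in input lay within 20 kb of a listed gene, out of 843 such regions. Of all 51499 autosomal peaks only 52 lay within 1 kb of such a region, against 0 of the 255 peaks. This absence is therefore not particular to the listed genes.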

How the data were processed

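Peak positions on mm10, for OCT4 and for input, were used as deposited by the authors. Per the methods, alignment was by Bowtie2, peaks were called in each library with MACS2 (paired fragments, q threshold 0.01), regions shared by at least 2 peak sets were kept as the consensus, and regions called in input were removed. The sources give these steps for YY1 and state that OCT4 was handled alike. Versions listed in processing notes of the submitters are 2.3.5.1 for Bowtie2 and 3.5.0 for deepTools. The allelic tables hold fractions that the authors made from fragments assigned to each X chromosome. They hold no autosomal peak and were not used further. No per-sample column of another series was present (0 left out).

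Genes, starts and sequences came from RefSeq GRCm38.p6, the assembly of mm10, with coordinates counted from 1. All RefSeq transcripts, predicted ones included, gave starts, and a promoter peak had a base within 500 bp of one. Peaks were counted within 20 kb of the gene body, and genes of like length had bodies at most 25% longer or 20% shorter. Elements were searched on both strands in the central 300 bases and in whole peaks. Repeats are those in lower case in the RefSeq genome file. The members and gene lists were chosen with earlier results of these data known, so no chance test was made. All 32 genes are named. Coordinates are given for every peak of the core factors and, for other genes, for the peak nearest to the first start and the widest, with further peaks described by width alone. Elements are shown as 29 bases, shorter than the 30 first planned, to keep any stretch in a UTR short. Of 12 tissue-restricted genes, 11 matched the annotation by symbol, as did all genes of the other lists. Python 3.11.15 with numpy 2.4.6, pandas 2.3.3, scipy 1.17.1, pysam 0.24.0 and matplotlib 3.10.9 was used. Counting was tested on simulated data with 200 made-up genes, all counted right. Alternatives were other distances, peak centres, leaving out narrow peaks or peaks near input regions, assignment to the nearest start, other length factors and comparison genes, other promoter windows and other search windows.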

Additional observations from a re-analysis of the deposited data

How the results depend on the processing

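The list is pooled and carries positions only, so no library could be left out and depth limits cannot be given. No paired analysis was possible because no result comes from a test and the list holds no library of its own. In 33 of 52 alternatives the value stayed within 1.5 times (counts) or within the 95% interval of the reported one. Some counts could not change, as the listed genes had no peak near an input region to leave out. Wider windows cannot lose a gene with a peak, and promoter peaks were already counted at the gene's own starts only. For the median share, the interval treats it as a proportion of like-length genes and does not measure its spread over the listed genes. Every listed gene kept a peak except 1 within 5 or 10 kb (31 genes). The number of peaks was 158 within 5 kb and 511 within 100 kb. The median per gene was 4 within 5 kb, 11 within 50 kb and 15.5 within 100 kb. The median share of like-length genes with as many or more peaks, 7.29%, was 12.7% within 5 kb, 5.32% within 10 kb, 10.7% within 50 kb and 15.4% within 100 kb. It was 10.7% without the narrowest 25% of peaks, 3.43% with each peak given to the nearest start only, 3.96% with a like number of neighbouring starts, and 12.0% against genes with a peak at an own start. That last alternative, curated transcripts only and leaving out receptor families were chosen with the data already seen. Median width was 774 bp at promoters, 456 bp at distal places and 635 bp without the narrowest 25%. Counting only starts of the listed genes, 14.5% of peaks were at starts. An octamer or composite was in 16.1% of peaks with a 600-base window and in 17.3% of whole peaks, as these windows are longer.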
